A study of Mus musculus with 8 samples.

Results

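Complex I of the respiratory chain was examined at the level of its transcripts, through the 45 genes, of 22520 rows in the table, whose symbols name a nuclear-encoded NADH:ubiquinone oxidoreductase subunit or Ndufaf assembly factor. They were taken by name (*Nduf* followed by a, b, c, s, v, ab or af and a number), without *Ndufa4*, whose product is counted with complex IV. Earlier results of these data were known when this rule was set. The genes fall into 37 subunits and 8 assembly factors. The libraries came from splenic CD8+ T cells of mice that were kept under anti-CD3, anti-CD28 and IL-2 for 6 days. From day 3 the medium held 40 µM DADA (diisopropylamine dichloroacetate, described in the study as an inhibitor of pyruvate dehydrogenase kinase) or an equal volume of the solvent DMSO, and cells were harvested on day 6. There were 4 libraries per group, called DMSO 1 to 4 and DADA 1 to 4, and every cell in both groups had received the same prolonged stimulation, so the DMSO libraries are no resting control. The cells are a culture model of persistent stimulation, and the labels do not state which animal or culture each library came from, so the p-values measure the spread between these libraries.

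Complex I takes electrons from NADH, passes them along iron-sulphur clusters to ubiquinone and pumps protons across the inner mitochondrial membrane. A peripheral arm reaches into the matrix and carries the redox centres, and a membrane arm holds the proton pumps, which are encoded by mitochondrial DNA. Core subunits do the catalysis, accessory subunits surround and stabilise them, and assembly factors build the complex in modules without staying in the finished enzyme. In T cells, activation is accompanied by growth of the mitochondrial network, and the respiratory chain is one of the main destinations of electrons derived from pyruvate.

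All 45 genes passed the filter on low values, and the lowest value of any of them in any library was 4.73 FPKM (fragment density per transcript length, relative to the mapped library) for *Ndufaf3* in DADA 3. With DADA, 22 of the 37 subunits (59.5%) were lower and 3 (8.11%) were higher, at an adjusted p-value under 0.05 in limma, and 12 did not pass. Among all 10666 genes tested, 35.3% were lower and 30.9% were higher under the same rule. The median log2 fold change of the subunits was -0.17, on the log2(FPKM + 1) scale used throughout, whereas the median over all genes tested was -0.02. Of the 8 assembly factors, 5 (62.5%) were lower and none was higher (limma, also none at an unadjusted p-value under 0.05), and their median was -0.36. The 4 values of one group lay entirely above or below those of the other for 21 subunits and 5 assembly factors, and this was so for 60.6% of all genes tested. In bulk RNA, a smaller number of cells of one type and less RNA per cell cannot be told apart.

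**Figure D1:**
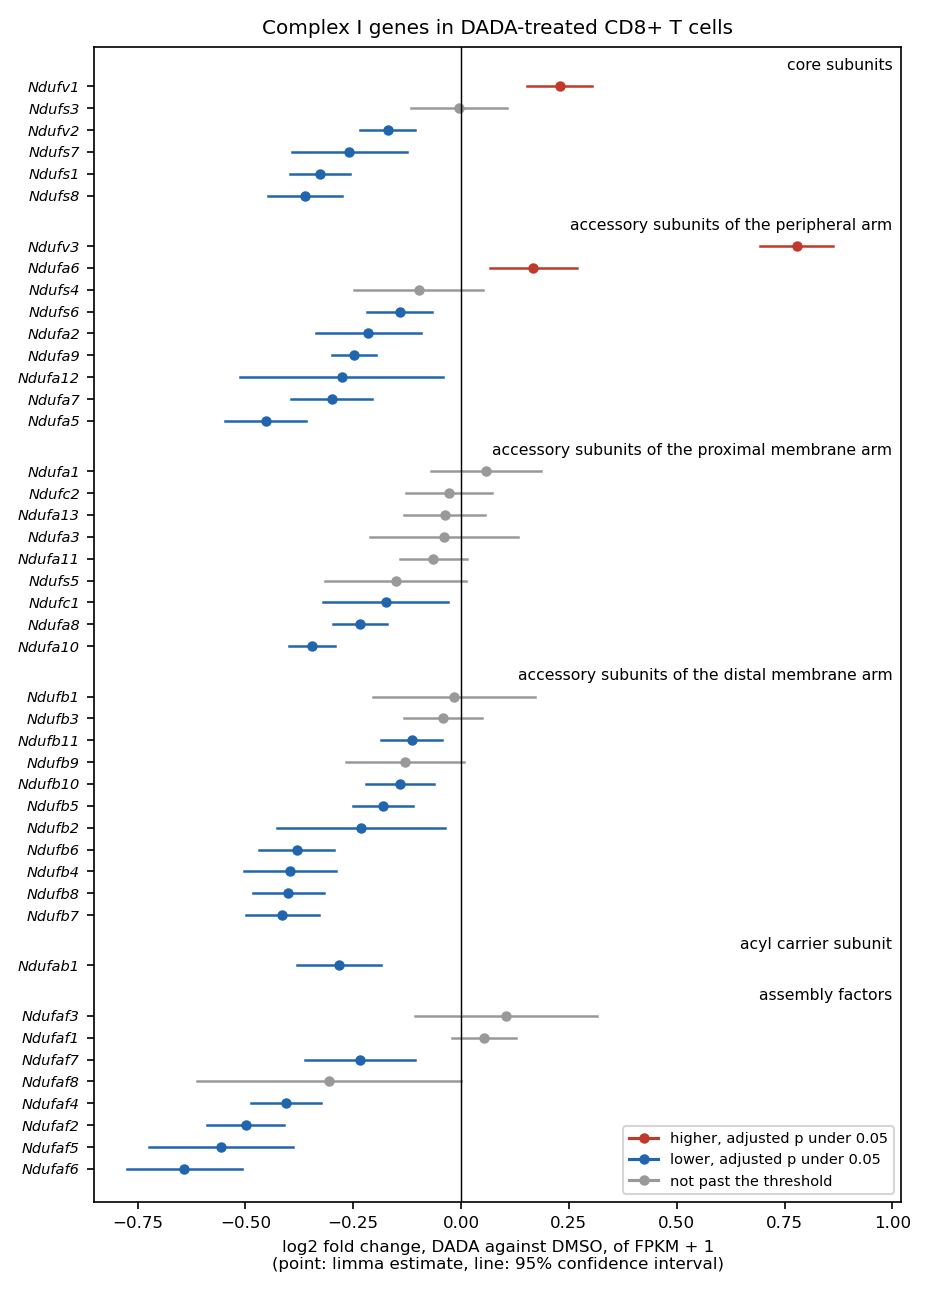
Log2 fold change of FPKM + 1, DADA against DMSO, on the x axis for 44 complex I genes, grouped by place in the complex (point, limma estimate; line, 95% confidence interval; 4 libraries per group). Red points are higher and blue points lower at an adjusted p-value under 0.05 and grey points did not pass; *Ndufv3*, at 0.78, stands to the right of every other gene, and *Ndufaf6*, at -0.64, stands furthest to the left.

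The labelled cell type was matched by its markers, and markers of other blood cells were near 0. The summed level of *Cd3e*, *Cd3d*, *Cd8a* and *Cd8b1* was 458 to 468 FPKM under DMSO and 556 to 577 FPKM under DADA. The summed markers of B cells (3 genes, 1 of them at 0 in every library) and of myeloid cells (3 genes, 1 at 0) stayed at or under 0.190 and 0.0567 FPKM, those of erythroid cells (3 genes, 1 at 0) at or under 0.241 FPKM, and *Cd4* between 0.144 and 0.411 FPKM. The 2 NK cell markers summed to 0 to 0.0959 FPKM under DMSO and 0.144 to 0.336 FPKM under DADA. The table holds no counts, but steps between its lowest values gave 13920000 to 16280000 fragments per DMSO library and 15150000 to 18880000 per DADA library, as an estimate. At that depth the complex I genes rested on 120 (*Ndufaf8*) to 5535 (*Ndufb7*) fragments per library on average. These figures use the longest annotated transcript of each gene, 4435 nt for *Ndufb7*. They are too high where a shorter transcript is the one expressed.

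The 3 subunits that rose and the subunit and assembly factor with large falls that had a promoter window were looked up in RefSeq (build GRCm38.p6), since genes that move together or apart can be compared by their start regions. Each window runs from 250 bases before to 50 bases after the annotated start, 5′ to 3′ on the strand of the gene, and 40 of the 45 genes had at least 1. *Ndufa2*, *Ndufaf6*, *Ndufb9* and *Ndufs1* were among those with none. Capitals mark GGGCGG (the SP motif), CACGTG (the E-box) and GCGCANGCG (the NRF1 motif, bound by nuclear respiratory factor 1), each searched on both strands, together with CCGGAAG (ETS), AAGATGGCG (YY1) and AAGGTCA (ERR), which these 5 windows do not hold.
The windows lie at chr17:31519865-31520164 (+ strand) for *Ndufv3*, chr19:4012706-4013005 (- strand) for *Ndufv1*, chr15:82354242-82354541 (- strand) for *Ndufa6*, chr2:140170396-140170695 (+ strand) for *Ndufaf5* and chr6:24527477-24527776 (- strand) for *Ndufa5*.
Ndufv3: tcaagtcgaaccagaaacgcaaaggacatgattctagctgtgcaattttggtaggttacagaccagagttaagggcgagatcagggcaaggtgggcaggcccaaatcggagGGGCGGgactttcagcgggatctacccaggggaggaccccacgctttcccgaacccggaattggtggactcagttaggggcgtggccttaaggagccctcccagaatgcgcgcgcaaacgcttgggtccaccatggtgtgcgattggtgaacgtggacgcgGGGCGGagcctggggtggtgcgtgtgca
Ndufv1: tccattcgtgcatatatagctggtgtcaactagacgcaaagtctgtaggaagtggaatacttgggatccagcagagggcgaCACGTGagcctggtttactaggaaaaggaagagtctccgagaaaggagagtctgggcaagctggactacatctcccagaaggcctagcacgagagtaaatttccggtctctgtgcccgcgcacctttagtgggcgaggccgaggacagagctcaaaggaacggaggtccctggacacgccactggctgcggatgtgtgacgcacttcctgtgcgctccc
Ndufa6: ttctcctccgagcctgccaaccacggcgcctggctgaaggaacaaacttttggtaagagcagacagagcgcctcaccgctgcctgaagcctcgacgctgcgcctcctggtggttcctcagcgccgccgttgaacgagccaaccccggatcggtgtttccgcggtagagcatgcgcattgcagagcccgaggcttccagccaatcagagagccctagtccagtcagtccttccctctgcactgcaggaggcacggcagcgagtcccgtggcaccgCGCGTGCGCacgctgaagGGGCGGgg
Ndufaf5: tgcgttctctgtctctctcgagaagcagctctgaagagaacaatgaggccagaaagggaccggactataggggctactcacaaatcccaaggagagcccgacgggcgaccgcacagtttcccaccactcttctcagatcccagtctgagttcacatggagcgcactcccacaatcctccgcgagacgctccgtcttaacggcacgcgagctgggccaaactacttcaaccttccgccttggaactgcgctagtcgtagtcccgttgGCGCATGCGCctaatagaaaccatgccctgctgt
Ndufa5: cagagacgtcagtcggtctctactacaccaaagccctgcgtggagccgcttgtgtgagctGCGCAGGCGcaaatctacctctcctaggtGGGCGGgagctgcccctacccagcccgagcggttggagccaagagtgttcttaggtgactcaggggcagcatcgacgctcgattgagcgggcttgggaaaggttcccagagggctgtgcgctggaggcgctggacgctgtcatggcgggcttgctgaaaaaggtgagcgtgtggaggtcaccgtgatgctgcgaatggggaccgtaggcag

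The upper 3 windows belong to genes that rose and the lower 2 to genes that fell, and the motifs found do not separate the pair of lower windows from the others. *Ndufv3* holds the SP motif only, *Ndufv1* the E-box only, and *Ndufa6* the NRF1 and SP motifs. *Ndufa5* also holds the NRF1 and SP motifs, and *Ndufaf5* holds the palindromic form of the NRF1 motif, which is read on both strands as overlapping matches. Over all 42 windows of the 40 genes, the NRF1 motif was present in 26.2%, against 6.25% of the 32851 windows in the table, and the YY1 motif in 14.3% against 1.40%. The SP motif was in 52.4% of the complex I windows and 35.7% of all windows. ETS letters were found in 14.3% against 8.86%, ERR letters in 7.14% against 4.72%, and the E-box in 7.14% against 7.15%. The windows compared with were not limited to genes expressed in these cells. Among windows of genes lower with DADA the NRF1 motif was in 8 of 26, among those higher in 1 of 3, and among those not called in 2 of 13. *Ndufa5* and *Ndufa7*, both lower, each enter these counts with more than a single window. A match is a description of letters in the window and says nothing of binding in these cells.

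Among the 7 core subunits, which carry the flavin and the iron-sulphur clusters, 1 (14.3%) was higher, 4 (57.1%) were lower and 2 did not pass. Over all genes tested, 30.9% were higher and 35.3% lower. The median log2 fold change of the core subunits was -0.17. *Ndufv1*, which binds NADH and the flavin that accepts its electrons, was the core subunit that rose. Its level was 55.5, 54.7, 54.1 and 52.2 FPKM in DMSO 1 to 4 and 60.2, 63.9, 66.8 and 63.6 FPKM in DADA 1 to 4. Every DADA library was above every DMSO library. The mean moved from 54.1 ± 1.414 to 63.6 ± 2.72 FPKM (SD, n = 4 each), a rise of 17.5% and a log2 fold change of 0.23 (standard error, SE, 0.0338, adjusted p = 1.84e-04 in limma).

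*Ndufv2*, the partner of Ndufv1 in the NADH-binding module, fell over the same libraries. It was at 59.0, 62.1, 60.4 and 61.2 FPKM under DMSO and at 51.5, 55.2, 53.9 and 54.7 FPKM under DADA, which do not overlap. Its log2 fold change was -0.17 (adjusted p = 4.20e-04 in limma). The ratio of *Ndufv1* to *Ndufv2* was 0.892 ± 0.0368 with DMSO and 1.18 ± 0.0397 with DADA (SD, n = 4 each). That this ratio separates follows from the 2 genes moving apart without overlap, and it is no further evidence. The other called core subunits were all lower. *Ndufs8*, which carries iron-sulphur clusters of the matrix arm, went from 66.3 ± 2.89 to 51.4 ± 2.202 FPKM (log2 fold change -0.36, adjusted p = 1.79e-05 in limma). *Ndufs1*, the largest core subunit of the matrix arm, had a log2 fold change of -0.33 (adjusted p = 7.48e-06 in limma), and its exons overlap on the opposite strand those of *Eef1b2*, which reached 659 FPKM. Whether the authors' quantification used strand is not given in the sources used here, so reads of such a pair cannot be told apart with certainty. The same holds for *Ndufs6* with *Mrpl36* (up to 38.7 FPKM), *Ndufb11* with *Rbm10* (33.2), *Ndufb1* with *Cpsf2* (27.0), *Ndufa3* with *Tfpt* (16.8), *Ndufa2* with *Tmco6* (12.9), *Ndufb2* with *Braf* (12.1) and *Ndufb5* with *Mrpl47* (10.8), all described further on. *Ndufs7*, which lies at the ubiquinone site, had a log2 fold change of -0.26 (adjusted p = 0.00315 in limma).

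*Ndufs3*, a core subunit of the ubiquinone-binding module, did not pass. It was at 54.8 and 54.6 FPKM, with a 95% confidence interval of the log2 fold change from -0.12 to 0.11 around -0.01, which became 0.03 under TPM scaling and 0.02 under quantile normalization. The gene shares 98.6% identity over 75.7% of its transcript with *Gm12251*, a copy that could take some of its fragments.

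**Figure D2:**
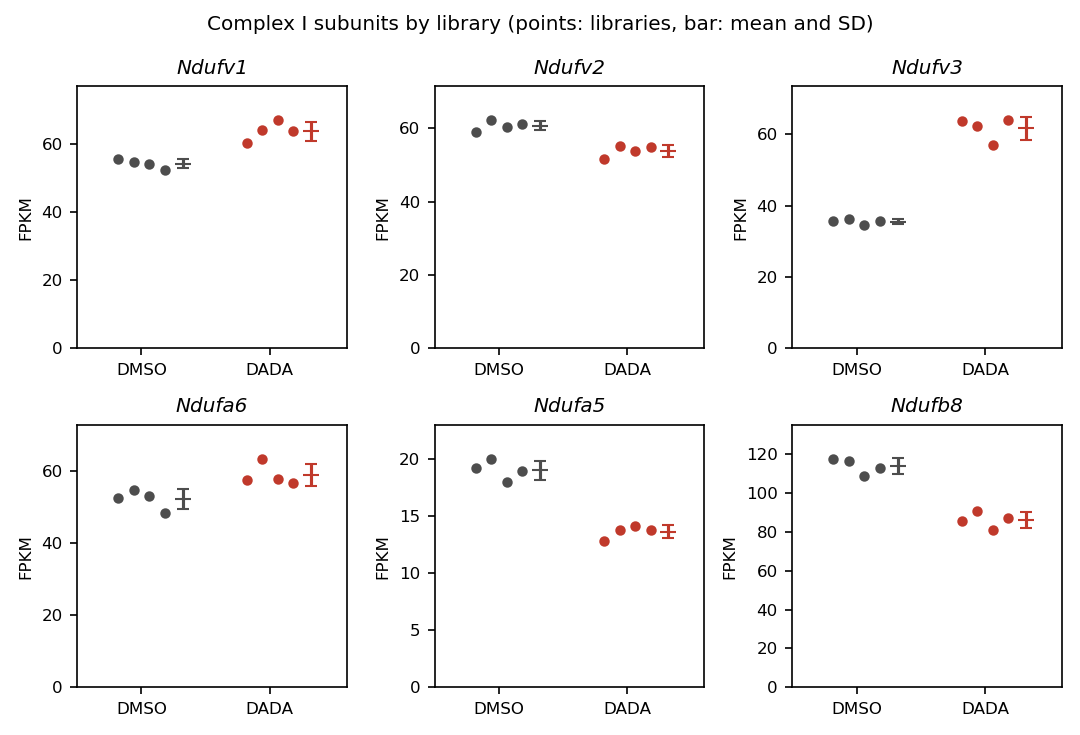
FPKM of 6 complex I subunits in each library (grey points, 4 DMSO libraries; red points, 4 DADA libraries; bar, mean and SD beside the points; y axes start at 0). *Ndufv1*, *Ndufv3* and *Ndufa6* lie higher with DADA, while *Ndufv2*, *Ndufa5* and *Ndufb8* lie lower, with no overlap between the groups in any of the 6 panels.

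The 9 accessory subunits of the peripheral arm held both the highest and the lowest fold change of all subunits. Of them, 2 (22.2%) were higher, 6 (66.7%) lower and 1 not called, beside 30.9% higher and 35.3% lower over all genes tested. *Ndufv3* encodes a small accessory subunit that sits on the NADH-binding module beside Ndufv1 and Ndufv2. Its transcript was at 35.8, 36.3, 34.5 and 35.7 FPKM in DMSO 1 to 4 and at 63.6, 62.4, 57.0 and 64.0 FPKM in DADA 1 to 4. The lowest DADA library lay well above the highest DMSO library. The mean rose by 73.6%, from 35.6 ± 0.772 to 61.7 ± 3.24 FPKM (SD, n = 4 each), a log2 fold change of 0.78 (SE 0.0378, adjusted p = 5.51e-08 in limma). In the order of log2 fold changes from the highest down, it was number 578 of the 10666 genes tested.

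The place of *Ndufv3* within its module changed accordingly. Its ratio to *Ndufv2* was 0.606, 0.584, 0.571 and 0.583 with DMSO and 1.24, 1.13, 1.06 and 1.17 with DADA. It was thus the scarcer transcript of the pair in every DMSO library and the more abundant one in every DADA library. Since *Ndufv3* rose and *Ndufv2* fell without overlap, their ratio had to separate, and it is given as a description only. Against *Ndufv1*, which also rose, the ratio was 0.657 ± 0.0210 with DMSO and 0.973 ± 0.0869 with DADA (SD, n = 4 each). The two-sided exact permutation test gave p = 0.0286, the smallest that 4 against 4 libraries allow. The values of the single genes already fix this separation, so the ratio is a description and no further evidence. *Ndufv3* is known to give proteins of different size by alternative splicing of 1 exon, and the table holds 1 value per gene, so a shift between isoforms was not tested.

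*Ndufa6*, an LYR-motif protein that anchors the acyl carrier subunit to the peripheral arm, was the other accessory subunit that rose. It was at 52.7, 54.8, 53.2 and 48.4 FPKM under DMSO and at 57.7, 63.3, 57.7 and 56.6 FPKM under DADA. The groups did not overlap, although the highest DMSO and the lowest DADA library were close, and DADA 2 stood above the other DADA libraries. Its log2 fold change was 0.17 (SE 0.0451, adjusted p = 0.00806 in limma), and it ranged from 0.12 to 0.20 over the alternatives.

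*Ndufa5*, a subunit of the ubiquinone-binding module, had the largest fall of all subunits. It was at 19.2, 20.01, 17.97 and 19.0 FPKM under DMSO and at 12.8, 13.8, 14.2 and 13.8 FPKM under DADA, well apart. The log2 fold change was -0.45 (SE 0.0418, adjusted p = 6.03e-06 in limma). *Ndufa7* (-0.30), *Ndufa9* (-0.25), which binds a nucleotide cofactor near the junction of the arms, *Ndufa2* (-0.21) and *Ndufs6* (-0.14), a zinc-binding subunit, were also lower, and for each of them the groups did not overlap. *Ndufa9* had the smallest SE of these in limma (0.0226), at 105 ± 1.82 and 87.9 ± 1.62 FPKM (SD, n = 4 each, adjusted p = 5.42e-06 in limma).

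*Ndufa12* and *Ndufs4* were less certain. *Ndufa12*, which takes the place of the assembly factor Ndufaf2 in the finished arm, was at 79.8, 81.0, 79.6 and 96.5 FPKM under DMSO and at 58.7, 62.1, 76.8 and 81.6 FPKM under DADA, so DADA 4 lay above 3 of the DMSO libraries. Its log2 fold change of -0.28 passed narrowly (adjusted p = 0.0400 in limma), with an exact permutation p of 0.114. The call was lost without DMSO 1 (-0.30, limma adjusted p = 0.0509), DMSO 2 (-0.29, 0.0562), DMSO 4 (-0.21, 0.107), DADA 1 (-0.20, 0.105) or DADA 2 (-0.23, 0.106). It was also lost under TPM scaling (limma adjusted p = 0.0656), quantile normalization (0.0970), no filter on low values (0.0807) and limma without its mean-variance trend (0.0559). *Ndufs4*, a subunit added late with the NADH-binding module, was at 38.7 ± 1.27 FPKM under DMSO and 36.2 ± 4.11 FPKM under DADA, where DADA 2 alone exceeded every DMSO library at 41.9 FPKM. The log2 fold change was -0.10 (adjusted p = 0.218 in limma), and without DADA 2 it was -0.17 (adjusted p = 0.00759 in limma).

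*Ndufab1*, the mitochondrial acyl carrier protein, is bound to both arms and also serves mitochondrial fatty acid synthesis. It fell from 41.8 ± 1.96 to 34.2 ± 1.77 FPKM (SD, n = 4 each, log2 fold change -0.28, adjusted p = 2.48e-04 in limma). The groups did not overlap. Its LYR partner on the peripheral arm, *Ndufa6*, rose, as given above, and its LYR partner on the membrane arm, *Ndufb9*, did not pass.

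The 9 accessory subunits of the proximal membrane arm, the part that joins the peripheral arm, showed the smallest shift, with a median log2 fold change of -0.06. None rose (limma, also none at an unadjusted p-value under 0.05), 3 (33.3%) were lower and 6 did not pass. That share of lower genes was close to the 35.3% over all genes tested. *Ndufa10*, related to nucleoside kinases, was at 59.3, 59.9, 58.3 and 60.1 FPKM under DMSO and 46.0, 45.5, 47.2 and 47.4 FPKM under DADA. Both groups were narrow and far apart, and the log2 fold change of -0.35 had the smallest adjusted p-value of the falling subunits (SE 0.0234, adjusted p = 6.11e-07 in limma). *Ndufa8*, a disulphide-rich subunit facing the intermembrane space, had a log2 fold change of -0.24 (adjusted p = 4.11e-05 in limma).

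*Ndufc1* was the least abundant subunit, at 11.9 ± 0.778 FPKM under DMSO and 10.4 ± 0.920 FPKM under DADA, and its groups overlapped. Its log2 fold change of -0.18 passed (adjusted p = 0.0359 in limma), but not without DMSO 1 (-0.14, adjusted p = 0.0944), DMSO 2 (-0.18, 0.0600), DMSO 3 (-0.16, 0.0787), DADA 1 (-0.17, 0.0761) or DADA 3 (-0.12, 0.0882). Nor did it pass under TPM scaling (limma adjusted p = 0.0553) or no filter on low values (0.0633). The exact permutation p was 0.0857. *Ndufc2*, its neighbour in the membrane arm, was the most abundant subunit at 115 FPKM under DMSO, 9.68 times the level of *Ndufc1*, and 113 FPKM under DADA.

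Among the subunits of this region that did not pass, *Ndufs5* was at 45.5, 48.0, 44.6 and 36.1 FPKM under DMSO and between 37.9 and 40.2 FPKM under DADA, so DMSO 4 alone lay below the DADA libraries. Its log2 fold change was -0.15 (adjusted p = 0.0933 in limma), but it passed without DMSO 4, at -0.24 (adjusted p = 2.61e-04), and with the trend over transcript length subtracted, at -0.23 (adjusted p = 0.0173). *Ndufa11* (-0.06) and *Ndufa3* (-0.04) kept their sign under the scalings tried, but *Ndufa11* became lower with the length trend subtracted, at -0.12 (adjusted p = 0.0116 in limma), and *Ndufa3* was at 0.01 without DADA 3. *Ndufa13*, also known as GRIM-19, had -0.04 and 0.0033 under quantile normalization. *Ndufc2* had -0.03, with 0.0029 under TPM scaling and 0.02 under quantile normalization. *Ndufa1* had 0.06 and, once the trend with transcript length was subtracted, -0.04.

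All 11 accessory subunits of the distal membrane arm had negative log2 fold changes, where 5602 of all 10666 genes tested did. Of the 11, 8 (72.7%) were lower, beside 35.3% of all genes tested, and 3 did not pass, with a median of -0.18. The fold changes kept their sign under the scalings tried except for *Ndufb1*, which turned to 0.01 under TPM scaling. *Ndufb7*, a disulphide-rich subunit of the intermembrane face, was at 93.2, 86.8, 91.3 and 84.1 FPKM under DMSO and at 67.0, 68.4, 62.8 and 67.4 FPKM under DADA. Its 2 groups were widely separated, and the log2 fold change was -0.41 (SE 0.0382, adjusted p = 6.03e-06 in limma). *Ndufb8*, a membrane-spanning subunit often blotted as a sign of assembled complex I, was at 117, 117, 109 and 113 FPKM under DMSO and at 85.3, 90.6, 81.0 and 87.0 FPKM under DADA. It too was lower in every DADA library (log2 fold change -0.40, SE 0.0369, adjusted p = 5.91e-06 in limma).

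*Ndufb4* and *Ndufb6*, single-span subunits of the same region, followed closely. *Ndufb4* was at 21.3, 20.8, 21.3 and 21.996 FPKM under DMSO and at 16.0, 17.0, 16.7 and 14.4 FPKM under DADA (log2 fold change -0.40, SE 0.0477, adjusted p = 4.27e-05 in limma). *Ndufb6* was at 91.0, 89.4, 83.6 and 90.3 FPKM under DMSO and at 68.3, 71.8, 67.3 and 63.7 FPKM under DADA (log2 fold change -0.38, SE 0.0393, adjusted p = 1.35e-05 in limma). In neither gene did the groups overlap, and the 4 largest falls of the distal arm lay close together, between -0.41 and -0.38. Smaller falls were seen in *Ndufb5* (-0.18) and *Ndufb10* (-0.14), without overlap, and in *Ndufb11* (-0.11, limma adjusted p = 0.00894), where the lowest DMSO library lay below the highest DADA library and the adjusted p was 0.0604 under quantile normalization. *Ndufb11* also has a copy, *Gm6444*, of 96.9% identity over 50.2% of its transcript.

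*Ndufb2* was at 21.3, 21.0, 25.8 and 25.8 FPKM under DMSO and at 17.4, 22.2, 20.4 and 19.4 FPKM under DADA, with DADA 2 above DMSO 1 and DMSO 2. Its log2 fold change of -0.23 passed narrowly (adjusted p = 0.0385 in limma). Without DMSO 3 (-0.18, adjusted p = 0.103), DMSO 4 (-0.19, 0.102), DADA 1 (-0.17, 0.103), DADA 3 (-0.25, 0.0541) or DADA 4 (-0.22, 0.0783) it did not. Nor did it pass under TPM scaling (limma adjusted p = 0.0635), no filter on low values (0.0747) or limma without its mean-variance trend (0.0517). *Ndufb9*, an LYR protein, was not called at -0.13 (adjusted p = 0.0867 in limma) and passed without DADA 2, at -0.18 (adjusted p = 0.0226), and with the length trend subtracted, at -0.20 (adjusted p = 0.0122). *Ndufb1* was at -0.02. *Ndufb3* was at -0.04, not called, and passed with the length trend subtracted, at -0.11 (adjusted p = 0.0322 in limma).

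The DADA libraries did not lie at the same distance from DMSO for every subunit. DADA 2 was the highest of its group in 20 of the 37 subunits and DADA 3 the lowest in 17, whereas DMSO 1 was the highest of its group in 16. The median deviation of the subunits from their group mean was 0.05 on the log2 scale in DADA 2 and -0.03 in DADA 3, and over the genes with transcripts under 1000 nt it was 0.05 and -0.04. Of the subunits, 18 are this short by their longest annotated transcript, the length used throughout. The 619 genes tested with transcripts under 1000 nt had a median log2 fold change of 0.01, with 26.3% lower and 25.4% higher. With the trend over transcript length subtracted, 27 subunits were lower and their median was -0.21. That trend was positive at every length, at 0.013 to 0.32, so subtracting it lowered every gene with a known length. The median of all genes tested moved with it from -0.02 to -0.06. Without DADA 2, 23 subunits were lower with a median of -0.18, and without DADA 3, 20 were lower with a median of -0.17. Over the 37 subunits, fold change was weakly related to level (Spearman rho across genes -0.25) and to transcript length (-0.19), and the order of the subunits by level was largely kept between DMSO and DADA (rho across genes 0.92). These are descriptions across genes measured in the same libraries.

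The 8 assembly factors were expressed at a lower level than the subunits, with medians over genes of 16.4 FPKM under DMSO and 10.7 FPKM under DADA against 54.1 and 49.97 FPKM for the subunits. The largest fall of any complex I gene was that of *Ndufaf6*, a protein related to phytoene synthases that is needed early in building the membrane arm. It was at 15.3, 16.0, 15.2 and 16.7 FPKM under DMSO and at 10.1, 10.8, 8.70 and 9.62 FPKM under DADA, a fall of the mean by 38.0%. No DADA library came near the DMSO range, and the log2 fold change was -0.64 (SE 0.0593, adjusted p = 6.08e-06 in limma).

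**Figure D3:**
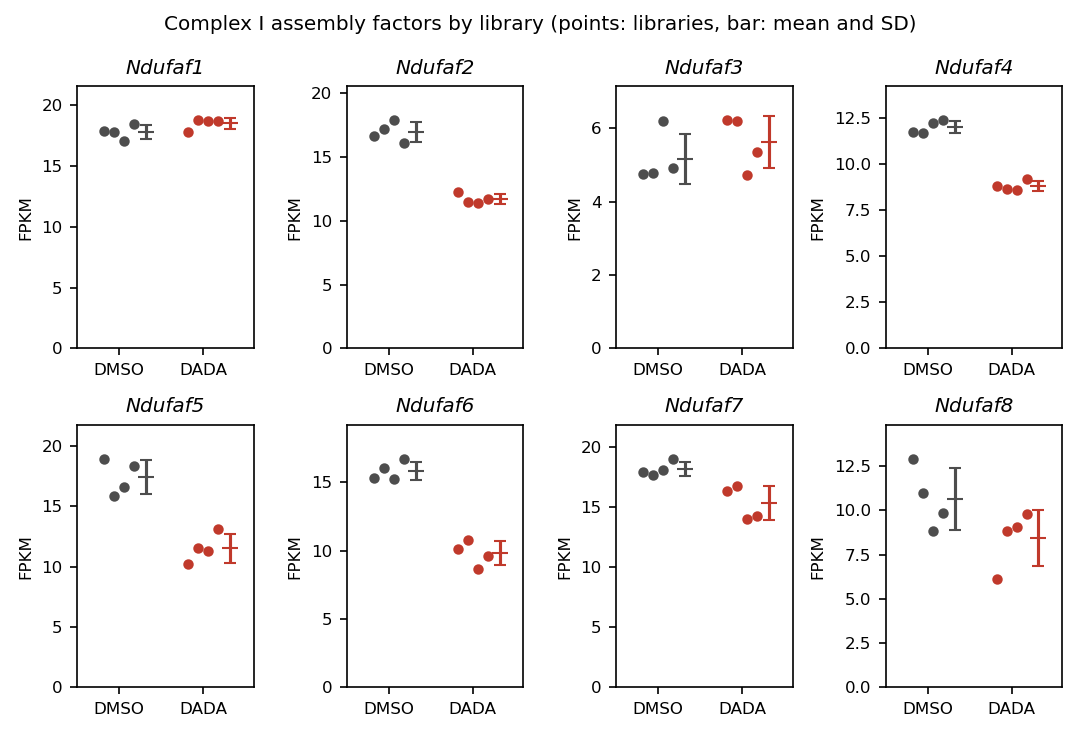
FPKM of the 8 Ndufaf assembly factors in each library (grey points, 4 DMSO libraries; red points, 4 DADA libraries; bar, mean and SD beside the points; y axes start at 0). *Ndufaf2*, *Ndufaf4*, *Ndufaf5*, *Ndufaf6* and *Ndufaf7* lie lower with DADA without overlap, while the groups overlap in *Ndufaf1*, *Ndufaf3* and *Ndufaf8*.

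Among the assembly factors that modify or guide the ubiquinone-binding module, some fell and others were not called. *Ndufaf5*, which hydroxylates an arginine of Ndufs7, was at 18.9, 15.9, 16.6 and 18.3 FPKM under DMSO and at 10.2, 11.6, 11.3 and 13.1 FPKM under DADA. The spread was wide in both groups but they did not overlap, and the log2 fold change was -0.56 (SE 0.0744, adjusted p = 9.02e-05 in limma). Its partner *Ndufaf8*, which stabilises it, was at 12.9, 11.0, 8.81 and 9.86 FPKM under DMSO and at 6.14, 8.80, 9.05 and 9.76 FPKM under DADA. These groups overlapped, and the log2 fold change of -0.31 did not pass (adjusted p = 0.0717 in limma), though it did without DMSO 3 (-0.38, adjusted p = 0.0369) or DADA 4 (-0.38, 0.0458), with the length trend subtracted (-0.37, 0.0299) and under quantile normalization (-0.35, 0.0499). *Ndufs7*, the substrate of Ndufaf5, was itself lower, as given above.

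*Ndufaf4*, which accompanies the ubiquinone-binding module through early assembly, was at 11.7, 11.7, 12.2 and 12.4 FPKM under DMSO and at 8.78, 8.65, 8.602 and 9.18 FPKM under DADA. It had one of the tightest separations among the assembly factors (log2 fold change -0.41, SE 0.0362, adjusted p = 4.71e-06 in limma). Its partner *Ndufaf3* was at 4.77, 4.77, 6.19 and 4.91 FPKM under DMSO and at 6.22, 6.19, 4.73 and 5.37 FPKM under DADA, with full overlap. The log2 fold change of *Ndufaf3* was 0.10 (95% confidence interval -0.11 to 0.32, adjusted p = 0.352 in limma), and its exons overlap on the opposite strand those of *Impdh2*, which reached 151 FPKM.

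*Ndufaf7*, a mitochondrial arginine methyltransferase, was at 17.96, 17.7, 18.1 and 19.0 FPKM under DMSO and at 16.3, 16.8, 14.0 and 14.3 FPKM under DADA. The DADA libraries fell into a higher and a lower pair, both under the DMSO range (log2 fold change -0.23, SE 0.0571, adjusted p = 0.00453 in limma). *Ndufaf2*, a paralogue of Ndufa12 that acts late on the peripheral arm, was at 16.7, 17.2, 17.9 and 16.1 FPKM under DMSO and at 12.3, 11.5, 11.4 and 11.7 FPKM under DADA. The groups were far apart (log2 fold change -0.50, SE 0.0400, adjusted p = 2.11e-06 in limma). *Ndufaf1*, a member of the assembly complex that builds the proximal membrane arm, did not pass, at 17.8 ± 0.558 FPKM under DMSO and 18.5 ± 0.450 FPKM under DADA (log2 fold change 0.05, 95% confidence interval -0.02 to 0.13, adjusted p = 0.178 in limma).

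Assembly proteins without an Ndufaf name were read from a list chosen for their role. Of the 10 in the table, 6 (60%) were lower, none was higher (limma, 1 at an unadjusted p-value under 0.05) and 4 did not pass. Over all genes tested, 35.3% were lower and 30.9% higher. The median log2 fold change of the 10 was -0.25. *Acad9*, which works in the same assembly complex as Ndufaf1 and Ecsit, was at 13.5, 13.2, 13.9 and 13.5 FPKM under DMSO and at 8.02, 8.31, 8.46 and 8.08 FPKM under DADA. It was the steadiest gene of this list within each group and had its largest fall (log2 fold change -0.66, SE 0.0336, adjusted p = 7.90e-08 in limma). *Ecsit* had -0.20 and *Timmdc1* -0.34, both lower, whereas their partner *Tmem126b* had -0.04 and was not called. *Tmem70* (-0.50), which also serves ATP synthase assembly, *Tmem186* (-0.41) and *Foxred1* (-0.30) were lower. *Nubpl* (-0.12), which delivers iron-sulphur clusters, *Dmac1* (0.05) and *Dmac2* (0.16, adjusted p = 0.0502 in limma) were not called.

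The 7 complex I subunits encoded by mitochondrial DNA, which form the proton-pumping membrane arm, went both ways. *mt-Nd1* (log2 fold change -0.73), *mt-Nd2* (-0.83), *mt-Nd3* (-0.87) and *mt-Nd4l* (-0.51) were lower, and *mt-Nd4* (0.57), *mt-Nd5* (0.45) and *mt-Nd6* (0.61) were higher, and in none did the groups overlap. Of all genes tested, 35.3% were lower and 30.9% higher, and the groups did not overlap in 60.6%. *mt-Nd4l* and *mt-Nd4* are carried by a shared mRNA, and they moved in opposite directions, from 549 ± 21.3 to 386 ± 15.0 FPKM and from 783 ± 40.0 to 1159 ± 37.0 FPKM (SD, n = 4 each). *mt-Nd6* is read from the other strand of the mitochondrial genome, so without strand its fragments cannot be told apart from antisense ones. How fragments of overlapping mitochondrial transcripts were assigned was not tested.

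Beside the rest of the respiratory chain, the complex I subunits had a similar share of lower genes. Of 39 nuclear-encoded subunits of complexes II, III and IV and ATP synthase, 23 (59.0%) were lower, 4 (10.3%) higher and 12 not called, with a median log2 fold change of -0.15. The shares over all genes tested were 35.3% lower and 30.9% higher. By complex the medians were -0.25 for complex II (4 genes), -0.21 for complex III (9), -0.04 for complex IV (11, *Ndufa4* among them) and -0.18 for ATP synthase (15). These are counts and medians, and the difference between the lists was not tested. *Ndufa4*, outside the rule, was at 87.3 ± 6.68 FPKM under DMSO and 73.0 ± 7.51 FPKM under DADA (log2 fold change -0.26, adjusted p = 0.0132 in limma).

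**Figure D4:**
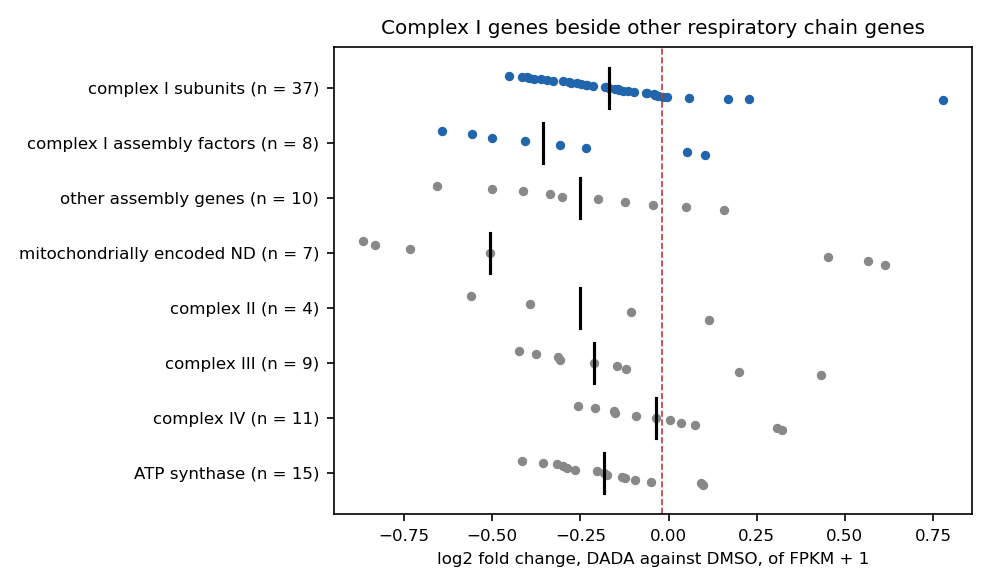
Log2 fold change of FPKM + 1, DADA against DMSO, of each gene (points, spread vertically for visibility) in the complex I groups (blue) and in other respiratory chain gene lists (grey), with the number of genes in brackets. Black bars are list medians, which run from -0.17 for complex I subunits to -0.36 for assembly factors in the blue rows, and the dashed red line at -0.02 is the median of all 10666 genes tested.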

How the data were processed

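Bulk RNA-seq of 8 libraries, 4 per group, was assigned to DMSO or DADA by title. For every gene, the authors deposited 1 FPKM value in each library, made from paired-end reads. The submitters' processing notes name HISAT2 2.0.5, StringTie 1.3.3, FastQC 0.11.9 and the builds GRCm39 and GRCh38, with no role given, and whether strand was used is not given in the sources used here. FPKM divides by length and by mapped fragments, so a rise in a few abundant genes lowers all others.

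Complex I genes were taken by symbol. The members, lists, motifs and tests were chosen with earlier results of these data known. The test was limma 3.58.1 (R 4.3.3; lmFit, eBayes with a mean-variance trend, two-sided) on log2(FPKM + 1), over the 10666 genes with at least 1 FPKM in at least 4 of the 8 libraries, adjusted by Benjamini-Hochberg over all of them, with a call at an adjusted p-value under 0.05. This scale understates the change of low genes. Single values were compared by an exact permutation test, two-sided, with 70 assignments. Of the members, 1 is not reported here one by one but stays in every count and median. Each other member was given a value or call, with values per library for each called assembly factor, the subunits that rose and the 5 largest falls; others shown per library were chosen after their values were seen. The fit was tested on simulated data. Transcript lengths (the longest transcript of each gene) and overlaps came from GENCODE M21, copies from blastn 2.17.0 (at least 95% identity over at least 50% of a transcript), and promoter windows from RefSeq. Depth was estimated from the steps between low values, 470 to 542 per library, among 4431 genes with a single transcript. At the depth that fitted these steps best, 35.5% to 42.1% of the low values lay within 0.1 of a whole fragment. The depth is therefore uncertain and no count test was run.

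The alternatives were a pseudocount of 0.1, no filter (16167 genes), a mean of at least 5 FPKM, the length trend subtracted (loess, span 0.3), a common total per library (TPM), quantile normalization, median-ratio scaling, each library left out, a replicate block, and eBayes with no trend.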

Additional observations from a re-analysis of the deposited data

Results flagged for a closer look

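In 7 of 90 sets of 4 libraries (45 genes in both groups), 1 library stood apart from the other 3, measured as its gap to the nearest library over the range of the group. Chance gives this in about 1 in 20 sets. *Ndufa12* in DMSO 4 had 0.918, at 96.5 FPKM beside 79.6 to 81.0. *Ndufs4* in DMSO 4 had 0.875, at 40.6 FPKM beside 37.9 to 38.2. *Ndufaf3* in DMSO 3 had 0.898, at 6.19 FPKM beside 4.77 to 4.91. *Ndufa9* in DMSO 1 had 0.881, at 107 FPKM beside 103 to 104. With DADA, *Ndufa6* in DADA 2 had 0.835, at 63.3 FPKM beside 56.6 to 57.7, and *Ndufb10* in DADA 2 had 0.862, at 59.1 FPKM beside 55.4 to 55.9. *Ndufaf1* in DADA 1 had 0.897, at 17.8 FPKM beside 18.7 to 18.8. The rise of *Ndufa6* and the falls of *Ndufa9* and *Ndufb10* stayed called whichever single library was left out, while the call of *Ndufa12* was lost without DMSO 4.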

How the results depend on the processing

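Over 17 alternatives, the subunits lower with DADA numbered 19 to 27, beside 22, those higher stayed at 3, and the assembly factors lower numbered 5 to 6, beside 5, with none higher. The median log2 fold change of the subunits was -0.14 with TPM, -0.14 with quantile normalization and -0.21 with the length trend subtracted, and -0.19 to -0.15 with 1 library left out. That of the assembly factors was -0.40 with the length trend subtracted and -0.40 to -0.33 with 1 library left out. Of 30 called genes, 26 kept their call in all 17, and *Ndufa12*, *Ndufb2*, *Ndufc1* and *Ndufb11* did not. Calls were gained by *Ndufa11*, *Ndufb3*, *Ndufb9*, *Ndufs5* and *Ndufaf8* with the length trend subtracted, by *Ndufaf8* under quantile normalization, and with 1 library left out by *Ndufb9*, *Ndufs4*, *Ndufs5* and *Ndufaf8*. Signs turned for genes near 0, and the cause was not tested. With TPM, *Ndufb1* was at 0.013, *Ndufc2* at 0.0029 and *Ndufs3* at 0.026. With quantile normalization, *Ndufa13* was at 0.0033, *Ndufc2* at 0.020 and *Ndufs3* at 0.023. With the length trend subtracted, *Ndufa1* was at -0.041. With 1 library left out, *Ndufb1* ranged from -0.081 to 0.052, *Ndufa3* from -0.095 to 0.012 and *Ndufs3* from -0.040 to 0.030. The length alternative lowered every gene with a known length and moved the median of all genes to -0.06.

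With the replicate block, 22 subunits and 5 assembly factors were lower and 3 subunits higher. *Ndufc1* lost its call (adjusted p = 0.0693), *Ndufb9* gained one (0.0256), and no other call changed. Same-numbered libraries correlated in their deviations at 0.0953, -0.120, -0.0877 and 0.0751, so the numbers were not taken as pairs. With 4 libraries per group and depth known only as an estimate, small differences in genes of few fragments, such as *Ndufaf8* and *Ndufaf3*, could not be resolved.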
